A study of Mus musculus with 12 samples.

Results

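Fabp1, Fabp4, Fabp5 and Dbi encode 4 small cytosolic proteins that carry fatty acids or acyl-CoA. They were taken by symbol from the 26855 genes of the study's count table, and all 4 were measured and tested. The libraries came from alveolar macrophages lavaged from mouse lungs 14 days into the response to bleomycin, which damages lung tissue and serves as a model of fibrosis. Every group therefore shares the bleomycin exposure, and no strain, age or untreated animal is given in the labels. A size filter first enriched or depleted the border-associated macrophages, and the cells were then sorted on side scatter and on BODIPY, a dye for neutral lipid. The 12 libraries form 3 groups of 4, titled UPBIG, UPSMALL and DOWN, and the labels do not tie a title to a filter fraction or a gate. Whether the replicates were separate mice is not stated either, so each p-value reflects no more than the scatter among these libraries, and that scatter may be technical.

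The Fabp genes belong to the intracellular lipid-binding protein family, whose members fold into a beta barrel that holds a fatty acid and moves it between membranes, enzymes and nuclear receptors. Fabp4, known as the adipocyte form, is also made by macrophages and is a target gene of the nuclear receptor PPARγ. Fabp5, the epidermal form, is made by many cells including macrophages. Fabp1 is the form of liver and gut. Dbi encodes acyl-CoA-binding protein, which has a different fold and holds fatty acids after they have been joined to coenzyme A. Resident alveolar macrophages take up and break down surfactant lipid, and cytosolic carriers of this kind handle the fatty acids that this releases.

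Fabp4 and Fabp5 lie in the same Fabp cluster of chromosome 3 (mm10), Fabp5 at chr3:10012548-10016607 on the plus strand and Fabp4 at chr3:10204088-10208576 on the minus strand. Fabp1 lies at chr6:71199827-71205023 on the plus strand and Dbi at chr1:120113280-120121078 on the minus strand. Because the Fabp genes are related, their coding sequences were compared to see whether reads could be confused. Fabp4 and Fabp5 were identical at 60.6% of 396 aligned coding bases, and their longest shared run was 12 bases. Fabp1 was identical to Fabp4 at 41.6% and to Fabp5 at 40.9% of aligned coding bases. Among all pairs of these genes with Fabp3 and Fabp7, which are described further on, Fabp3 and Fabp7 were the closest (66.9%, longest shared run 20 bases), and Fabp4 was identical to Fabp3 at 63.6% (run of 14) and to Fabp7 at 60.1% (run of 17). The stretches of Fabp4 (coding bases 81 to 140) and Fabp5 (coding bases 87 to 146) around the shared run are shown, 5′ to 3′ on the coding strand, with the 12 shared bases in capitals.
Fabp4: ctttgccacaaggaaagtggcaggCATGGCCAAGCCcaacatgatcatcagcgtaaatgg
Fabp5: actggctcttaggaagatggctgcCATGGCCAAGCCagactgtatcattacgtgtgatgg
Outside the capitals the sequences differ at many positions, so a read longer than the shared run can be told apart by its other bases. Processed copies matter more for Fabp5. Annotated pseudogenes that match its transcript at 85% or more over at least 150 bases numbered 5, and together they received 861.7 expected counts, equal to 0.119% of the Fabp5 count. Most of these counts went to Gm6166, with 728 in all, and the split between Fabp5 and Gm6166 is uncertain. Dbi had 1 such copy, listed at 0 in every library, and no such copy of Fabp1 or Fabp4 was found.

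The Fabp1 promoter was taken from the RefSeq promoter table (GRCm38.p6), which gives 250 bases before and 50 after an annotated start. It is shown because Fabp1 changed in UPBIG against DOWN although it is best known from liver and gut. The window is at chr6:71199629-71199928 on the plus strand, printed 5′ to 3′ on the strand of the gene, and capitals mark matches on either strand to TATAAA or to the nuclear receptor half-site AGGTCA.
Fabp1: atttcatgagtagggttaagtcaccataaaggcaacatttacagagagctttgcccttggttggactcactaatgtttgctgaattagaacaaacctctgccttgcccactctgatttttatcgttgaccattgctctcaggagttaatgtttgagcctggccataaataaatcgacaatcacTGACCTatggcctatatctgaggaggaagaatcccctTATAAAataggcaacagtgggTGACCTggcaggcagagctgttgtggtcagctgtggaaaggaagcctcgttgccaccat
Its RefSeq start lies inside the gene as placed above from the mm10 annotation, so positions here count from the RefSeq start, and the TATAAA match lies after the gene start given above. The window held TATAAA 30 bases before the RefSeq start and TGACCT, which is AGGTCA on the other strand, at 67 and 9 bases before it. Of 32851 mouse promoters of the same length, 13.6% held TATAAA and 16.3% held AGGTCA on either strand. Exact matches to a direct repeat of the half-site spaced by 1 base, in 0.0396% of promoters, and to TCACCCCAC, in 0.551%, were not found in this window. Only exact letters were searched, so a repeat or site with a mismatched base would be missed. These matches describe letters only.

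Library totals ranged from 17109669 to 23282621 expected counts. All 10 markers of resident alveolar macrophages had counts, led by Chil3, a secreted chitinase-like protein, at 7924, 9670 and 7465 CPM on average in UPBIG, UPSMALL and DOWN. They did not run together: Siglecf, their surface lectin, averaged 42.8, 28.9 and 18.1 CPM, and Car4, a carbonic anhydrase, 17.9, 127 and 88.1 CPM in the same groups. In DOWN, Marco, a scavenger receptor, was at 8 CPM, Krt79 at 2.68 CPM and the monocyte receptor Ccr2 at 184 CPM. Lyz2, Ftl1 and Fth1 together took 26.5% to 29.1% of counts in UPBIG libraries, 15.5% to 23.8% in UPSMALL and 19.5% to 22% in DOWN, and UPSMALL replicate 4 held the 15.5%. CPM is the count scaled to a common library total with TMM factors, and log2 fold changes are given with their standard error. A call means a Benjamini-Hochberg adjusted p under 0.05 over 12625 tested genes in edgeR's quasi-likelihood test, from a fit of all 12 libraries.

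Fabp4, Fabp5 and Fabp1 were all higher in UPBIG macrophages than in DOWN macrophages, and Dbi was lower. Fabp4 was 5.93-fold higher, Fabp1 5.05-fold and Fabp5 2.46-fold, while Dbi reached 0.698 times its DOWN level. By the joint test of any difference among the 3 groups, 4 of 4 members were called, against 13.8% of all tested genes. In these bulk libraries, fewer cells that express a gene and less RNA of it per cell cannot be told apart.

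**Figure D1:**
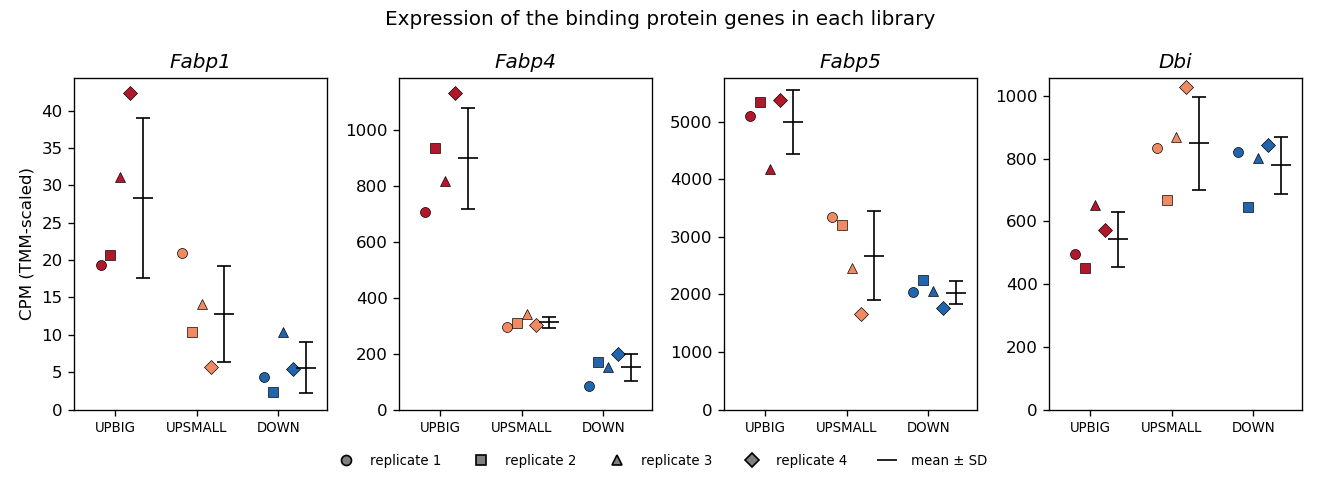
CPM (TMM-scaled, linear axis from 0, a separate scale for each gene) of the 4 genes in each of the 12 libraries, with symbols for the replicate number and the mean ± SD of 4 libraries beside each group. The Fabp4 values fall into 3 separate bands, the Dbi values of UPBIG lie at the bottom of its panel, and UPSMALL replicate 4 holds the lowest Fabp5 and the highest Dbi.

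Fabp4 separated all 3 groups. It had 707, 934, 817 and 1131 CPM in the UPBIG libraries, 295, 311, 340 and 303 CPM in UPSMALL and 84.8, 171, 152 and 198 CPM in DOWN. The lowest UPBIG library stood above every UPSMALL library, and the lowest UPSMALL library above every DOWN library. The log2 fold change was 2.57 ± 0.21 for UPBIG against DOWN (adjusted p = 6.34e-07) and 1.52 ± 0.20 for UPBIG against UPSMALL (adjusted p = 0.000237). For UPSMALL against DOWN it was 1.05 ± 0.20 (adjusted p = 0.0223). That last call was lost in 5 of the 12 fits that left out 1 library, namely each of the UPSMALL replicates and DOWN replicate 3, with adjusted p up to 0.0721, although the groups did not overlap. The 12 include the fits without an UPBIG replicate, which left both compared groups whole and kept the call.

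Fabp5 had the highest average level of the 4 genes per transcript length in each group. It had 5092, 5341, 4180 and 5372 CPM in UPBIG, 3344, 3212, 2462 and 1663 CPM in UPSMALL and 2040, 2254, 2063 and 1770 CPM in DOWN. UPBIG stood above both other groups with no overlap, whereas UPSMALL and DOWN overlapped through UPSMALL replicate 4, which lay under every DOWN library. Fabp5 rose in UPBIG against DOWN (1.30 ± 0.17, adjusted p = 3.13e-05) and against UPSMALL (0.90 ± 0.17, adjusted p = 0.0026). For UPSMALL against DOWN the log2 fold change was 0.39 ± 0.17 with a 95% interval of 0.04 to 0.75 and did not pass (adjusted p = 0.327). Without UPSMALL replicate 4 it was 0.57 and passed (adjusted p = 0.0315).

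Fabp1 was the scarcest of the 4, with 49 to 621 expected counts per library, and its replicates spread the most. It had 19.3, 20.7, 31.1 and 42.3 CPM in UPBIG, 20.9, 10.4, 14.1 and 5.69 CPM in UPSMALL and 4.29, 2.36, 10.4 and 5.38 CPM in DOWN. Every UPBIG library was above every DOWN library, and UPSMALL overlapped both. Fabp1 rose in UPBIG against DOWN, with a log2 fold change of 2.34 ± 0.49 (adjusted p = 0.00614). Neither step through UPSMALL passed: UPBIG against UPSMALL gave 1.16 ± 0.47 (95% interval 0.14 to 2.17, adjusted p = 0.209) and UPSMALL against DOWN 1.18 ± 0.48 (0.14 to 2.23, adjusted p = 0.318). In the joint test its adjusted p was 0.0171, and it was over 0.05 without DOWN replicate 1 (0.0513) or DOWN replicate 4 (0.0537).

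Dbi moved the other way. It had 497, 452, 652 and 572 CPM in UPBIG, 834, 667, 868 and 1027 CPM in UPSMALL and 822, 645, 803 and 844 CPM in DOWN. UPBIG lay wholly under UPSMALL, and its overlap with DOWN rested on UPBIG replicate 3 and DOWN replicate 2. Dbi fell in UPBIG against UPSMALL (-0.64 ± 0.14, adjusted p = 0.00819) and against DOWN (-0.52 ± 0.14, adjusted p = 0.0144). The UPBIG against DOWN call was lost without UPBIG replicate 2 (-0.44, adjusted p = 0.0584). UPSMALL and DOWN were not told apart, at 0.12 ± 0.14 with a 95% interval of -0.17 to 0.42 (adjusted p = 0.78).

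Counted over the genes, 4 of 4 members were called between UPBIG and DOWN, where 17.5% of all tested genes were. Of these 3 were higher, against 9.03% of tested genes, and 1 was lower, against 8.48%. In 3 of 4 the groups did not overlap, against 21.4% of tested genes. Between UPBIG and UPSMALL 3 of 4 were called, where the background was 5.70%, with 2 higher against 3.22% and 1 lower against 2.49%. In 3 of 4 these groups did not overlap, against 11.8%. Between UPSMALL and DOWN 1 of 4 was called, where the background was 1.14% (0.594% higher and 0.547% lower), and this was Fabp4, higher. In 1 of 4 these groups did not overlap, against 8.25%. These comparisons share libraries, so their counts are not independent of each other.

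**Figure D2:**
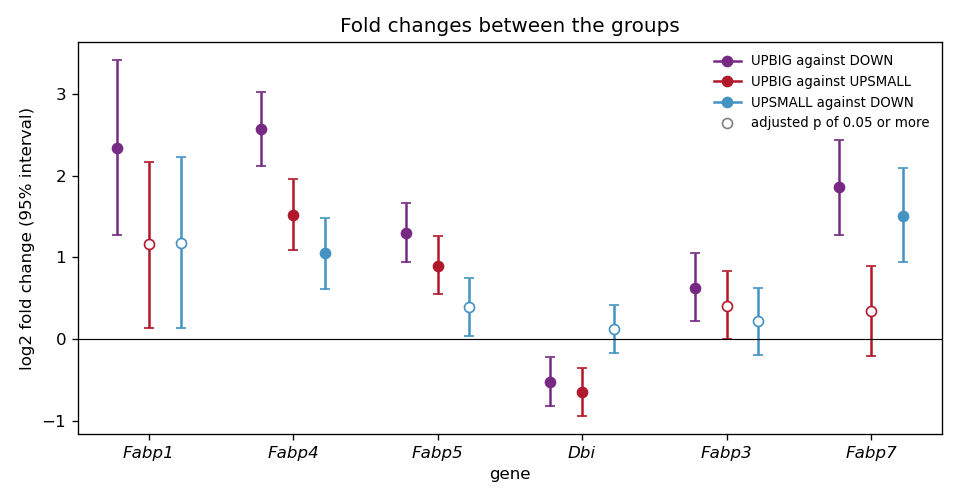
Log2 fold changes with 95% intervals for the 4 genes and for Fabp3 and Fabp7 in the 3 comparisons (all 12 libraries fitted together, 4 libraries per group). Filled points have adjusted p under 0.05, and Dbi is the gene whose called points lie under 0.

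UPSMALL was also set against the midpoint of UPBIG and DOWN on the log2 scale. The offset was -0.24 ± 0.18 for Fabp4, -0.26 ± 0.15 for Fabp5 and 0.01 ± 0.40 for Fabp1. For Dbi it was 0.38 ± 0.12, that is, UPSMALL above the midpoint. Its mean of 849 CPM in UPSMALL was above the means of both DOWN (779 CPM) and UPBIG (543 CPM). By edgeR 0 of 4 members passed, against 0.246% of tested genes. Before adjustment 1 of 4, Dbi, lay under 0.05, and its adjusted p was 0.292. DESeq2 and limma-voom each called 0 of 4.

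Levels can be set against each other between genes as TPM, which divides counts by transcript length. In UPBIG, Fabp5 averaged 5697 ± 718 TPM (SD, n = 4) and ranked 21 among all genes, Fabp4 1125 ± 219, Dbi 1071 ± 147 and Fabp1 57.2 ± 20.1. The UPBIG ranges of Fabp4 (888 to 1379) and Dbi (934 to 1266) overlapped, so their order was not resolved. In UPSMALL the order was Fabp5 with 3708 ± 919 TPM, Dbi with 2084 ± 482, Fabp4 with 484 ± 37.3 and Fabp1 with 31.5 ± 15. The ranges of Fabp5 (2545 to 4542) and Dbi (1563 to 2726) overlapped in UPSMALL, and in replicate 4 the order was reversed, with Dbi at 2726 TPM and Fabp5 at 2545 TPM. In DOWN, Fabp5 averaged 2970 ± 281 TPM, Dbi 1976 ± 243, Fabp4 246 ± 86.1 and Fabp1 14.5 ± 8.33, with no overlap between any neighbours in that order. Dbi thus stood above Fabp4 in every UPSMALL and DOWN library and around its level in UPBIG.

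Ratios between transcripts of the same library need no scaling between libraries, and they show unequal change without saying which gene changed. Fabp4 over Dbi, per length, was 0.903, 1.31, 0.796 and 1.26 in UPBIG, 0.225, 0.296, 0.249 and 0.188 in UPSMALL and 0.0655, 0.168, 0.12 and 0.149 in DOWN. All 3 groups were apart on this ratio. Fabp5 over Dbi was 5.91, 6.81, 3.7 and 5.41 in UPBIG, 2.31, 2.78, 1.64 and 0.934 in UPSMALL and 1.43, 2.01, 1.48 and 1.21 in DOWN. UPBIG stood apart, and UPSMALL overlapped DOWN.

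The balance between Fabp4 and Fabp5 was read in the same way. Fabp4 over Fabp5 was 0.153, 0.193, 0.215 and 0.232 in UPBIG, 0.0972, 0.107, 0.152 and 0.201 in UPSMALL and 0.0458, 0.0834, 0.0813 and 0.123 in DOWN. UPBIG lay above DOWN with no overlap, a log2 difference of 1.32, and UPSMALL overlapped both. Fabp1 over Fabp4 gave log2 differences of -0.15, -0.27 and 0.12 in the 3 comparisons, with overlap in each. Of 18 ratio tests, 8 reached a two-sided exact permutation p of 0.0286, the smallest that 4 against 4 allows, and 0 had an adjusted p under 0.05 (the 8 had 0.0643).

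**Figure D3:**
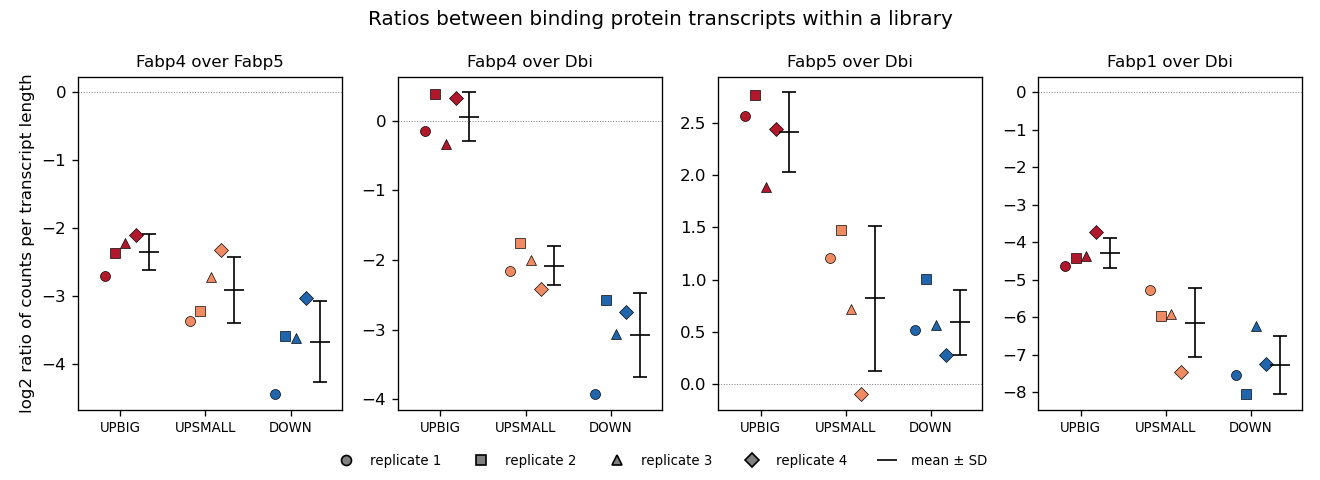
Log2 ratios of counts per transcript length between pairs of the 4 genes within each library, with symbols for the replicate number, the mean ± SD of 4 libraries beside each group and a dotted line at equal levels. In UPBIG Fabp4 lies around the level of Dbi (log2 -0.33 to 0.39), and in DOWN it lies under it (-3.93 to -2.57).

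Over the 7 Fabp genes with a count, summed TPM was 6928 ± 844 in UPBIG, 4268 ± 898 in UPSMALL and 3264 ± 294 in DOWN (SD, n = 4 each). Fabp5 made up 82.2% ± 2.6 of this pool in UPBIG, 86.3% ± 3.65 in UPSMALL and 91% ± 2.84 in DOWN. The Fabp4 share was 16.2% ± 2.34 in UPBIG, 11.9% ± 3.54 in UPSMALL and 7.52% ± 2.64 in DOWN. The lowest pool of an UPBIG library (5795 TPM) stood above the highest of UPSMALL (5072 TPM) and of DOWN (3703 TPM). TPM carries no TMM factor, so these pools were not scaled between libraries as CPM was. The shares of UPBIG and DOWN did not overlap for either gene (Fabp4 13.1% to 18.5% in UPBIG and 4.32% to 10.8% in DOWN). Fabp1 stayed at 0.836% or less of the pool on average.

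**Figure D4:**
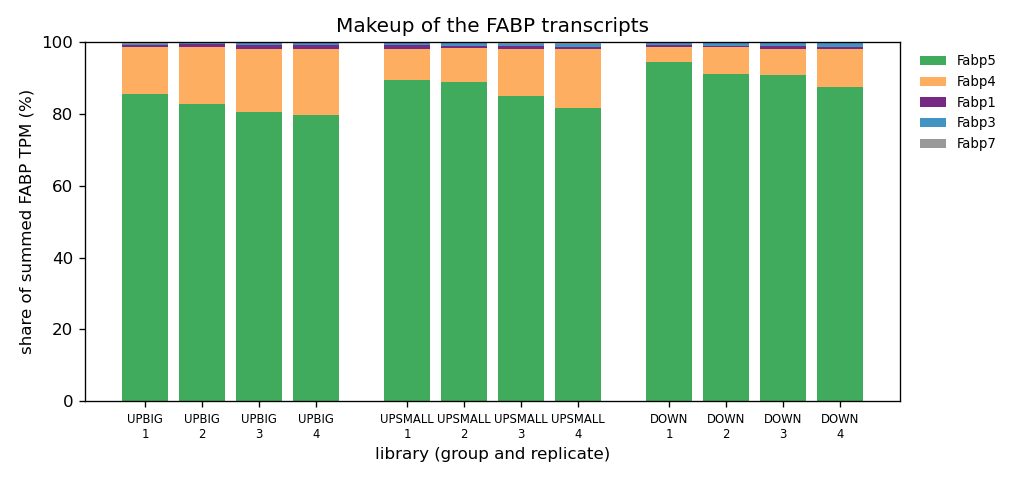
Share (%) of the summed Fabp TPM held by each Fabp gene in each library, as stacked bars that start at 0. Fabp5 holds 79.7% to 85.6% in the UPBIG libraries and 87.5% to 94.5% in DOWN, and Fabp4 takes up nearly all of the rest.

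Among the 12 other genes of the intracellular lipid-binding family (further Fabp, Crabp and Rbp genes), 8 had a count and 2 passed the filter on low counts. Both rose in UPBIG against DOWN, where 9.03% of all tested genes were higher. Fabp3, the heart form, averaged 25.4 ± 4.66 CPM in UPBIG, 19 ± 4.96 in UPSMALL and 16.4 ± 3.32 in DOWN, with a log2 fold change of 0.63 ± 0.20 for UPBIG against DOWN (adjusted p = 0.0317). Fabp7, the brain form, averaged 10.1 ± 3.81 CPM in UPBIG, 7.87 ± 0.813 in UPSMALL and 2.76 ± 0.65 in DOWN. Its log2 fold change was 1.86 ± 0.28 for UPBIG against DOWN (adjusted p = 0.0001), 1.51 ± 0.28 for UPSMALL against DOWN (adjusted p = 0.0103) and 0.35 ± 0.26 for UPBIG against UPSMALL (adjusted p = 0.545). Like Fabp4, Fabp7 was thus called between UPSMALL and DOWN, where 0.594% of all tested genes were higher. Fabp6, Fabp9, Pmp2 and Rbp2 were listed at 0 in every library, and Pmp2 and Fabp9 lie between Fabp5 and Fabp4 on chromosome 3. Fabp12, the next gene on the far side of Fabp4, had 19 counts over all libraries.

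Dbi was compared with the other genes that carry an acyl-CoA-binding domain or are close relatives of them. Of 8 such genes 6 were tested, and 3 rose in UPBIG against DOWN, against 9.03% of all tested genes. Eci2, an enoyl-CoA isomerase with such a domain, had a log2 fold change of 0.64 ± 0.12 (adjusted p = 0.000638). Acbd3, a Golgi protein, had 0.47 ± 0.16 (adjusted p = 0.0479). Eci3, a paralogue of Eci2 with which reads may be shared, had 3.14 ± 0.69 (adjusted p = 0.00323) from 3.13 ± 1.05 CPM in UPBIG and 0.35 ± 0.21 CPM in DOWN. Dbi fell, and Acbd4 (-0.29 ± 0.47), Acbd5 (0.22 ± 0.13) and Acbd6 (0.17 ± 0.23) did not pass. The median of the 6 was 0.35, beside -0.03 over all tested genes.

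Genes for the entry and activation of fatty acids came next. Of 10 tested, 4 rose and 1 fell in UPBIG against DOWN, with a median of 0.33, where 9.03% of all tested genes were higher and 8.48% lower. The count of lower genes lies near that share. Cd36, a membrane receptor that takes up fatty acids and oxidised lipoprotein, averaged 588 ± 98.7 CPM in UPBIG, 134 ± 36.6 in UPSMALL and 98.4 ± 24.8 in DOWN. Its log2 fold change was 2.58 ± 0.23 against DOWN (adjusted p = 2.22e-06) and 2.13 ± 0.22 against UPSMALL (adjusted p = 3.13e-05), beside 2.57 and 1.52 for Fabp4. Lpl, the lipase that frees fatty acids from lipoproteins, rose by 0.98 ± 0.11 against DOWN and 0.56 ± 0.11 against UPSMALL (adjusted p = 5.11e-06 and 0.00326). Acsl1, an acyl-CoA synthetase, rose by 0.57 ± 0.15 against DOWN (adjusted p = 0.0104) and Slc27a1, a fatty acid transport protein, by 0.49 ± 0.16 (adjusted p = 0.0463). Acsl3, another acyl-CoA synthetase, fell by 1.24 on the log2 scale (adjusted p = 0.0378) at 1.96 ± 1.22 CPM in UPBIG and 4.64 ± 0.624 CPM in DOWN.

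Among genes for the use of acyl-CoA, 3 of 11 tested were higher and 1 was lower in UPBIG against DOWN, with a median of 0.25. Of all tested genes 9.03% were higher and 8.48% lower, and the count of lower genes lies near that share. Acadl, the long-chain acyl-CoA dehydrogenase, averaged 156 ± 12.5 CPM in UPBIG, 65.2 ± 6.51 in UPSMALL and 64.9 ± 3.08 in DOWN, and rose by 1.27 ± 0.11 against DOWN (adjusted p = 1.36e-07) and 1.26 ± 0.11 against UPSMALL (adjusted p = 4.72e-07). UPSMALL and DOWN differed by 0.01 ± 0.11 for this gene (adjusted p = 0.987). Cpt2, the inner carnitine palmitoyltransferase of mitochondria, rose by 0.94 ± 0.20 against DOWN (adjusted p = 0.00259), and Soat1, which esterifies cholesterol with acyl-CoA, by 0.51 ± 0.11 (adjusted p = 0.00264). Agpat2, an acyltransferase of phosphatidic acid synthesis, fell by 0.83 on the log2 scale (adjusted p = 0.0213).

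Lipolysis genes, which release the fatty acids that Fabp proteins carry, included 4 of 7 that rose in UPBIG against DOWN, with a median of 0.49, against 9.03% of all tested genes. Mgll, the monoacylglycerol lipase, averaged 161 ± 20.8 CPM in UPBIG, 48.8 ± 9.53 in UPSMALL and 16.2 ± 2.11 in DOWN. It rose in all 3 comparisons, by 3.31 ± 0.16 for UPBIG against DOWN, 1.72 ± 0.15 for UPBIG against UPSMALL and 1.58 ± 0.15 for UPSMALL against DOWN (adjusted p = 6.85e-11, 4.72e-07 and 1.77e-05). Lipa, the lysosomal acid lipase, rose by 0.88 ± 0.13 against DOWN (adjusted p = 0.000126), Pnpla2, the adipose triglyceride lipase, by 0.77 ± 0.17 (adjusted p = 0.00352) and Pnpla8, a calcium-independent phospholipase, by 0.49 ± 0.14 (adjusted p = 0.0181). Lipe, the hormone-sensitive lipase that Fabp4 binds in adipocytes, was low at 0.774 ± 0.919 CPM in UPBIG and 1.6 ± 0.356 CPM in DOWN, and its difference did not pass (adjusted p = 0.306).

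Of 7 nuclear receptors for lipids that were tested, 1 rose in UPBIG against DOWN, a share near the 9.03% of all tested genes that were higher. This was Nr1h3, the liver X receptor alpha, at 35.7 ± 3.6 CPM in UPBIG and 20.4 ± 2.71 CPM in DOWN (0.81 ± 0.14, adjusted p = 0.000421). Pparg, which encodes PPARγ, averaged 73.4 ± 3 CPM in UPBIG, 60.9 ± 8.42 in UPSMALL and 59 ± 6.47 in DOWN, and its log2 fold change of 0.32 ± 0.12 did not pass (adjusted p = 0.0809). The fitted change of Fabp4 was 2.57. Transcript levels of a receptor do not measure its activity, and the part of PPARγ in the Fabp4 difference was not tested.

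Markers of other cells were read beside the members because Fabp4 and Fabp1 are made outside macrophages. Adipocyte markers summed to 0.527 to 2.33 CPM in UPBIG and 1.4 to 2.64 CPM in DOWN, with Cfd and Lep listed at 0. Endothelial markers summed to at most 1.23 CPM in UPBIG and 1.69 CPM in DOWN, with Cldn5 at 0. Markers of hepatocytes and enterocytes summed to 0.205 to 0.685 CPM in UPBIG and 0.152 to 0.289 CPM in DOWN, with Alb and Ttr at 0 in every library. Over all libraries Fabp4 stood at 84.8 CPM or more, and Fabp1 reached down to 2.36 CPM in DOWN replicate 2. The part of such cells in the values of Fabp4 and Fabp1 was not tested.

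Markers on other lists also differed between the groups. Of all tested genes 9.03% were higher and 8.48% lower in UPBIG against DOWN. Among 10 resident alveolar macrophage markers, 6 rose and 1 fell (Car4), and the count that fell lies near the share of all tested genes. The sum of this list, most of it Chil3, ran from 8662 to 12013 CPM in UPBIG and from 7288 to 11419 CPM in DOWN. Among 8 monocyte-derived macrophage markers 2 fell, Ccr2 (-4.22 ± 0.32) and Cx3cr1 (-4.75 ± 0.32), and the sum, nearly all of it Apoe (15227 and 15137 CPM on average in UPBIG and DOWN), ran from 10807 to 23094 CPM in UPBIG and from 12042 to 17469 CPM in DOWN. Of 6 dendritic cell markers 4 fell, with sums of 1.68 to 4.36 CPM in UPBIG, 4.46 to 13.3 in UPSMALL and 30.5 to 66.5 in DOWN. Of 6 T and NK cell markers 5 fell, with sums of 1.93 to 6.97 CPM in UPBIG, 0.955 to 6.9 in UPSMALL and 23.5 to 84.9 in DOWN. The part of these cells in the differences of the 4 genes was not tested. Between UPBIG and UPSMALL, where Fabp4, Fabp5 and Dbi also differed, the T and NK cell sums overlapped, the dendritic cell sums did not, and Ccr2 and Cx3cr1 were lower in UPBIG (-2.71 ± 0.30 and -3.87 ± 0.31, adjusted p = 0.000134 and 2.9e-07).

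Epithelial and other leukocyte markers were uneven between libraries. Airway epithelial markers summed to 252 CPM in UPBIG replicate 2 and to 21.7 to 28.1 CPM in the other UPBIG libraries. In DOWN they summed to 6.98 to 15.5 CPM, with Krt5 at 0. Of 4 tested, 1 (Scgb1a1) rose in UPBIG against DOWN, against 9.03% of all tested genes. Alveolar type 2 markers summed to 53.4 CPM in UPBIG replicate 3 and to 7.3 to 12 CPM in the other UPBIG libraries. In DOWN their sum was 10.9 to 17.1 CPM, with Slc34a2 at 0. Of 3 tested, 1 (Etv5) fell in UPBIG against DOWN, against 8.48% of all tested genes. In UPSMALL the airway sum was 48.3 CPM in replicate 4 and 12.8 to 21.8 CPM in the others, and this library also held the lowest Fabp5 and Fabp1 and the highest Dbi of its group. The calls of the 3 Fabp genes in UPBIG against DOWN held with any 1 library left out. Airway sums were higher in every UPBIG library than in every DOWN library, so these fits cannot test epithelial RNA. The part of epithelial RNA in the values of the 4 genes was not tested. The neutrophil list was carried by S100a8 (375 ± 15.2 CPM in UPBIG), with Ly6g at 0. Its sum was 365 to 400 CPM in UPBIG and 129 to 173 CPM in DOWN. Of 3 tested, 1 (S100a8) rose in UPBIG against DOWN, by 1.55 ± 0.12 (adjusted p = 5.34e-08), against 9.03% of all tested genes. S100a9 did not pass (adjusted p = 0.427). B cell markers summed to 0.75 to 8.29 CPM in UPBIG and 0.0433 to 17.5 CPM in DOWN.

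The nearest named protein-coding genes around the members were read as well. Pag1, below Fabp5 on chromosome 3, had a log2 fold change of 0.25 ± 0.13 for UPBIG against DOWN (adjusted p = 0.202). Tmem37 and Steap3, on either side of Dbi, had -0.47 ± 0.22 (adjusted p = 0.17) and 0.00 ± 0.35 (adjusted p = 0.999). Thnsl2, beside Fabp1, had 2.77 ± 1.00 from 139 counts in all and did not pass (adjusted p = 0.0636). The Fabp5 copy Gm6166 rose with Fabp5, by 1.66 ± 0.36 (adjusted p = 0.0031). The split of reads between them is uncertain, so this may not be a change of Gm6166 itself.

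Genes whose log2 CPM ran most like each member over the 12 libraries were ranked by Pearson's r among 7132 well-expressed genes, as a description, since all points share the 3 groups and their scaling. Nearest to Fabp4 were Zranb3 (r = 0.967), Clec1b, Ly75, Pomp and Tmem64. Nearest to Fabp5 were Slc15a3 (r = 0.980), Rilpl2, Akr1a1, Plin2 (r = 0.968) and Igf1 (r = 0.963), and Plin2 averaged 1173 CPM in UPBIG, 543 in UPSMALL and 399 in DOWN. Nearest to Fabp1 were Wrb (r = 0.945), Scp2, Rexo2, Mrps36 and Ubl4a, and nearest to Dbi were Gm12744 (r = 0.952), Chsy1, Fcor, Cmtm6 and Pfdn4. Among the members themselves, r was highest for Fabp4 with Fabp5 (0.856) and lowest among the Fabp pairs for Fabp1 with Fabp5 (0.816). With Dbi it was -0.856 for Fabp5, -0.659 for Fabp4 and -0.457 for Fabp1, so the inverse course was closest for Fabp5.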

How the data were processed

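The authors deposited counts per gene and library, which were assumed here to be RSEM expected counts. Per the submitters' processing notes, the tools were STAR, with mm10 as the genome, and RSEM. Their versions, the annotation and the strand setting were not given in the sources used here. Per the labels' protocols, full-length cDNA was amplified from polyadenylated RNA with the SMART-Seq HT kit without molecular identifiers, so counts are not independent molecules. Of the 26855 genes, 26775 matched a symbol in GENCODE vM21. Counts were rounded, filtered with filterByExpr and fitted with edgeR 4.0.16 under R 4.3.3, using TMM factors and robust quasi-likelihood F tests without a block. Dividing a log2 fold change by the root of its F gave the standard error. TPM used the longest principal transcript of each gene. Ratios of transcripts within a library were compared by two-sided exact permutation tests. Alternatives were other scalings, filters, DESeq2 1.42.0, limma-voom (limma 3.58.1), unrounded counts, a replicate block, fits of 8 libraries and each library left out. Named genes were the members, called or uncounted genes of the lists, neighbours, copies and the 5 genes most correlated with each member; list genes named as not called were chosen after their values were seen. Promoters of the other members are not reported here. The members and all 18 gene lists were chosen with earlier results of these data known.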

Additional observations from a re-analysis of the deposited data

How the results depend on the processing

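Between UPBIG and DOWN, 83 of 84 alternative values for the 4 genes kept their direction and their side of 0.05, as did 84 of 84 between UPBIG and UPSMALL and 77 of 84 between UPSMALL and DOWN. These tallies include fits that left out a library of the group not compared, and genes that stayed uncalled throughout. Values with 1 library left out ran from -0.62 to -0.44 for Dbi in UPBIG against DOWN. For UPSMALL against DOWN they ran from 0.86 to 1.21 for Fabp4 and from 0.27 to 0.57 for Fabp5. With no low-count filter, Fabp5 in UPSMALL against DOWN passed (0.41, adjusted p = 0.0167), Dbi against the midpoint passed (0.40, adjusted p = 0.0116) and the joint test of Fabp1 did not (adjusted p = 0.0548, and 0.00353 to 0.0537 with 1 library left out). The Fabp1 offset from the midpoint changed sign with 1 library left out (-0.32 to 0.26), as did Fabp1 over Fabp4 in UPBIG against DOWN (-0.58 to 0.19), UPBIG against UPSMALL (-0.6 to 0.04) and UPSMALL against DOWN (-0.31 to 0.47). The cause was not tested.

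Over all genes, library totals alone gave 3755 calls between UPBIG and DOWN (518 higher, 3237 lower), against 2210 (1140 higher, 1070 lower) with TMM, 1622 between UPBIG and UPSMALL (189 higher, 1433 lower), against 720 (406 higher, 314 lower), and 3021 in the joint test, against 1736. That scaling moved the median of all genes to -0.36 and -0.31 in these comparisons, and Fabp1, Fabp4 and Fabp5 stayed higher (2.03, 2.23 and 0.98) and Dbi lower (-0.84) in UPBIG against DOWN. UPSMALL against DOWN gave 144 calls, against 460 with no filter, 226 with limma-voom, 393 with DESeq2 and 58 to 179 with 1 library left out. The replicate block gave 275 there and passed Dbi against the midpoint (0.38, adjusted p = 0.0318); it ended no call of the 4 genes. The labels give no source for the replicate numbers. Of 12 same-numbered pairs 5 correlated over 0.1 (-0.03 to 0.15). Among the 4 libraries of another group, the own number was highest in 18 of 24 comparisons, a hint from the data and not the design. The main fit and the ratio tests used no such pairing. Fabp1 had the fewest counts of the 4 genes, and its scatter between libraries (CV 37.8% in UPBIG, 50.2% in UPSMALL and 61.5% in DOWN) was not divided into counting and other error.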
